A study of Mus musculus with 2 samples.

Results

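The 34 genes described here carry glucose through glycolysis or are known to be induced when oxygen falls. They were taken by name from a list of known pathway genes, with no threshold on their values, and all 34 were found among the 23235 gene symbols of the deposited expression table. Of them, 15 encode enzymes of glycolysis and lactate formation, from hexokinase to lactate dehydrogenase, and 19 are other hypoxia-induced genes and oxygen sensors. The study measured polyA RNA of activated satellite cells of neonatal mouse muscle by RNA-seq, in 1 library from Pax7 KO animals and 1 library from WT animals. Pax7 is a paired-box transcription factor that marks satellite cells, the stem cells of skeletal muscle, and the series asked which genes depend on it. The protocol names Pax7CreER/+ and Pax7flox/flox mice, in which tamoxifen activates a Cre expressed from the Pax7 locus, so that only cells that had expressed Pax7 could lose the gene. The protocol gives tamoxifen at 75 µg per g of body weight for 5 consecutive days starting on day 5. The same protocol is attached to both libraries, but it does not say whether the WT animals were injected. The alleles the WT animals carried, the strain and the number of animals behind each library are not given either. Cells of both groups were released from hind limb and back muscle with pronase, enriched by sedimentation and grown as myoblast cultures on Matrigel in medium with serum and bFGF.

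Glycolysis splits glucose into pyruvate, which lactate dehydrogenase reduces to lactate when respiration does not take it up. Many of its enzymes, the glucose transporter Slc2a1 and the lactate exporter Slc16a3 are direct targets of hypoxia-inducible factor (HIF). In oxygen, prolyl hydroxylases encoded by the Egln genes mark the HIF alpha subunit for destruction. When oxygen is short the subunit persists and, with its partner Arnt, binds the core ACGTG, or less often GCGTG, in its targets. Myoblasts that divide in culture rely heavily on glycolysis, while quiescent satellite cells are known for a low metabolic rate.

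The values are FPKM, fragments scaled to transcript length and library size. With 1 library per genotype there is no spread between replicates, so no test was possible, no p-value is given and every difference is one between these 2 libraries. From the spacing of low values the libraries held about 21000000 fragments in KO and 25200000 in WT. Pax7 itself was at 0.769 FPKM in KO and 3.21 FPKM in WT, the direction of the label. The measure of difference is log2((KO FPKM + 1) / (WT FPKM + 1)), here the log2 ratio, and it was taken for the 11751 genes whose mean FPKM reached 1. Adding 1 makes differences of low genes look smaller than they are. Its median over these genes was 0.42, a general shift toward KO, and ratios are therefore also given relative to that median gene. The counting intervals given below are 95% exact intervals of log2(KO FPKM / WT FPKM), without the pseudocount. They rest on estimated fragments and leave out all variation between cultures and animals, so that they cover counting error alone. Fragments were estimated with the longest transcript of each gene. Where shorter transcripts prevail, the fragments are overstated and the interval is too narrow even for counting error.

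All 34 genes had higher deposited values in KO, as did most genes compared, and they lay on both sides of the median gene. Of the 32 with a mean FPKM of 1 or more, 32 had a log2 ratio above 0, as did 88.6% of all genes compared, so this count says little about these genes. Above the median gene were 23 of the 32, against 50.0% of all genes by construction. The 9 below it, whose direction turns when ratios are centred on the median gene, were Hk2, Gapdh, Pgam1, Eno1, Slc16a1, Pfkfb3, Egln3, Vegfa and Mxi1. In bulk RNA a change in the number of cells of a type and a change in RNA per cell cannot be told apart, and markers of other cell types, given further on, differed between the same libraries. At least 2-fold higher were 6 of the 32, namely Ldhb, Bnip3, Slc16a3, Pfkl, P4ha1 and Adm, against 5.06% of all genes. None was at least 2-fold lower, a class that held 0.689% of all genes. Relative to the median gene none of the 32 was 2-fold higher or 2-fold lower, classes that held 1.35% and 1.45% of all genes. At a limit of 1.5-fold, 17 of the 32 were higher as deposited, against 30.0% of all genes. The median log2 ratio of the 32 was 0.63, or 0.21 relative to the median gene, within a range from 0.02 to 1.30 as deposited. The gene just inside the 2-fold limit was Adm at 1.07, and those just outside it were Pdk1 at 0.99 and Bnip3l at 0.94. The 2 genes under the expression limit were Aldoc, an aldolase of brain, at 1.46 FPKM in KO and 0.483 FPKM in WT, and Car9, a carbonic anhydrase of hypoxic cells, at 0.726 FPKM in KO and 0.598 FPKM in WT.

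**Figure D1:**
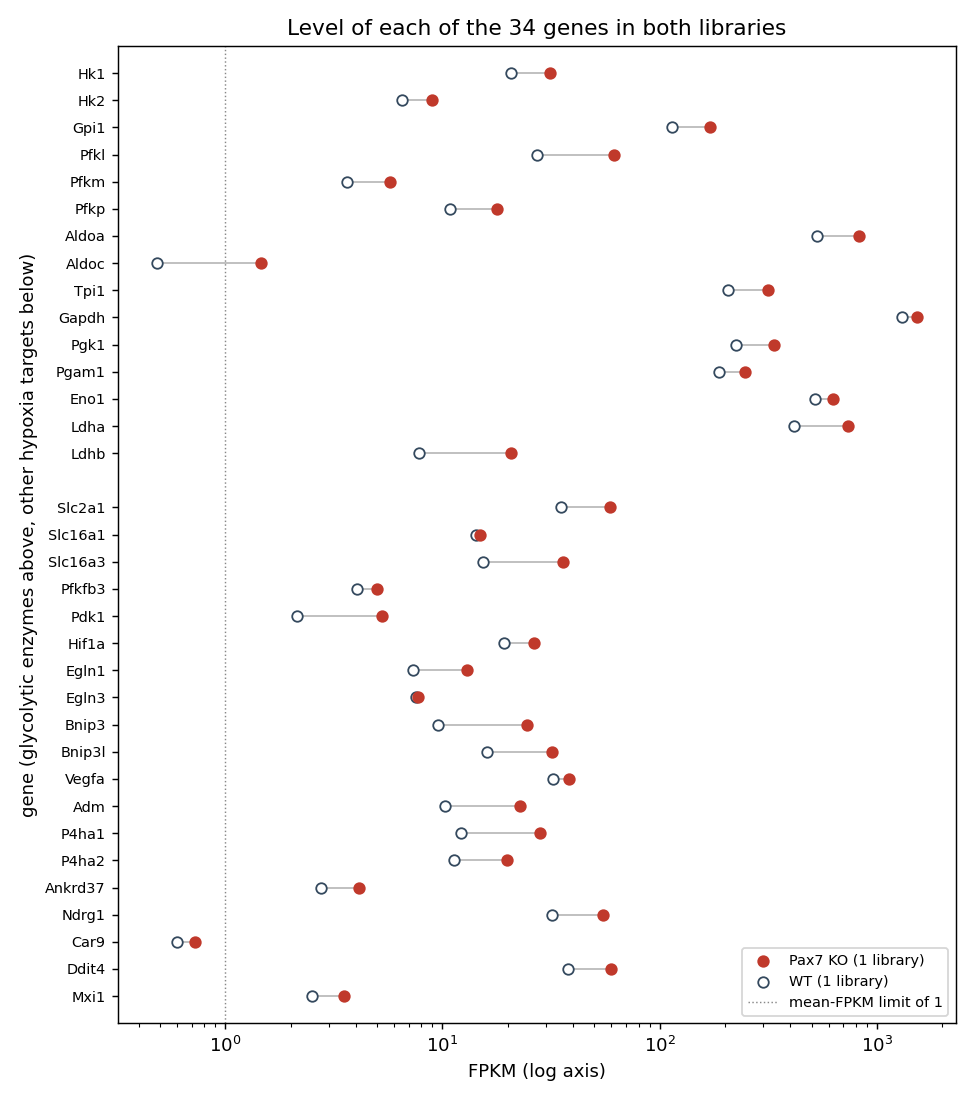
FPKM (log axis) of each of the 34 genes in the Pax7 KO library (filled) and the WT library (open), with glycolytic enzymes above and other hypoxia targets below. The KO point lies to the right of the WT point in every row, and the levels run from 0.726 FPKM for Car9 to 1537 FPKM for Gapdh in KO.

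The HIF core motif was frequent in the promoters of these genes, which the choice of genes did not use. RefSeq promoters on GRCm38.p6, from 250 bases before to 50 after the start of transcription, were found for 32 of the 34 genes, all but Bnip3l and Ndrg1, in 47 windows, of which those of 1 gene can overlap. The core ACGTG, searched on both strands, was present in 28 of the 47 windows, or 59.6%. It was present in 25.4% of the 10605 windows of genes that reached a mean FPKM of 1 and in 19.6% of all 32851 windows. Among the 22 windows of 17 other hypoxia targets 77.3% held it, and among the 25 windows of 15 enzymes 44.0%. These shares count windows, so a gene with several windows weighs more. The second core, GCGTG, was in 57.4% of the windows of the 34 genes, near the 50.8% of expressed genes. Many of these genes are known HIF targets, so the motif describes the list and is no result of the Pax7 comparison. Above the expression limit, 22 genes with ACGTG in a window had a median log2 ratio of 0.55, and 8 without it had 0.83. A gene with several windows had more chances to hold the core, and whether the motif bears on the ratios was not tested. Of the 6 genes past 2-fold, Bnip3, P4ha1 and Slc16a3 held ACGTG, and Ldhb, Pfkl and Adm did not.

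The 250 bases before the start of 6 genes show this range, with ACGTG or its complement in capitals; CACGTG holds the core on both strands and was counted once on each. They are written from 5′ to 3′ on the strand of the gene and come from RefSeq, GRCm38.p6. Bnip3, P4ha1 and Slc16a3 were chosen as genes past 2-fold with the core, Pfkl as one without it, Ldha for having the most copies and Egln3 for holding the core at a log2 ratio of 0.02. Their positions are chr7:138909507-138909756, minus strand for Bnip3, chr10:59323046-59323295, plus strand for P4ha1, chr11:120948817-120949066, plus strand for Slc16a3, chr10:78009808-78010057, minus strand for Pfkl, chr7:46845554-46845803, plus strand for Ldha, whose first of 2 windows is shown, and chr12:54203875-54204124, minus strand for Egln3.
Bnip3: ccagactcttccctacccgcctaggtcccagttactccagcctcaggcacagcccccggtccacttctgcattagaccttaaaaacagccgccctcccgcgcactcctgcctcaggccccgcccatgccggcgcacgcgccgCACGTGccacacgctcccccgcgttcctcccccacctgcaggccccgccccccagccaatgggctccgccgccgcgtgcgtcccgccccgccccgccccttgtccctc
P4ha1: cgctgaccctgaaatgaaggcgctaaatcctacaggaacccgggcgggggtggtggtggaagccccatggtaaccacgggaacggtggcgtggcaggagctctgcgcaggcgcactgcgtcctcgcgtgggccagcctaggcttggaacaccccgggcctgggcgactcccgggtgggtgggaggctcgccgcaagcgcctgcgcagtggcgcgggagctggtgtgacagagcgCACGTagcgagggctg
Slc16a3: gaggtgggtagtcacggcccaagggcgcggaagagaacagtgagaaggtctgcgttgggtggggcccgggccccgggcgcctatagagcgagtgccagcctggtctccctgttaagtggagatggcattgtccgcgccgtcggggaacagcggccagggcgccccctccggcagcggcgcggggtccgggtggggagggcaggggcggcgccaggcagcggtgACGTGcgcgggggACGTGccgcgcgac
Pfkl: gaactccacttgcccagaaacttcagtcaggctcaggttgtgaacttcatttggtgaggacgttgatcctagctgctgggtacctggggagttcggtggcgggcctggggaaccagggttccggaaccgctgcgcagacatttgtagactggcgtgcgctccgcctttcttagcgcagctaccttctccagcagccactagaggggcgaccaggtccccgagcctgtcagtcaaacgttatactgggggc
Ldha: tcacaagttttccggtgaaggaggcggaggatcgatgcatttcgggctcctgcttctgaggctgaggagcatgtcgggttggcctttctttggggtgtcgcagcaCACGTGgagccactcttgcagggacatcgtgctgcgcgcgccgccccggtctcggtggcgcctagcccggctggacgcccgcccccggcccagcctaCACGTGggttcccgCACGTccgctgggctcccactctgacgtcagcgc
Egln3: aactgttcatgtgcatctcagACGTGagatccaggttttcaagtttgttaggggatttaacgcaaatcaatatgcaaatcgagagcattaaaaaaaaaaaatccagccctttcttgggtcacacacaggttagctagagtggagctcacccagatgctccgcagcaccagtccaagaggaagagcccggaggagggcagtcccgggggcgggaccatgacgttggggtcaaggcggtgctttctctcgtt

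Ldha held 5 matches and Bnip3 2, in the Bnip3 window as a single CACGTG. In Slc16a3 the 2 copies lay close together near the start, and in Egln3 the single copy lay at the far end of the window. A match is only a stretch of letters, and no binding was measured here.

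Glycolytic enzymes were among the most abundant messages of both cultures. The 15 enzymes together summed to 4950 FPKM in KO and 3581 FPKM in WT, 1.38-fold higher in KO, where the sum of all genes was 1.40-fold higher. Their median log2 ratio, over the 14 above the expression limit, was 0.58, or 0.15 relative to the median gene. Of these 14, 2 were at least 2-fold higher, against 5.06% of all genes, and none was 2-fold lower, against 0.689%. Above the median gene lay 10 of the 14, against 50.0% of all genes by construction. The 8 enzymes with a mean FPKM of 100 or more had a median of 0.58, where all 523 genes as abundant had a median of 0.51. By sum and by median the enzymes as a group were close to all genes, and the steps differed among themselves.

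**Figure D2:**
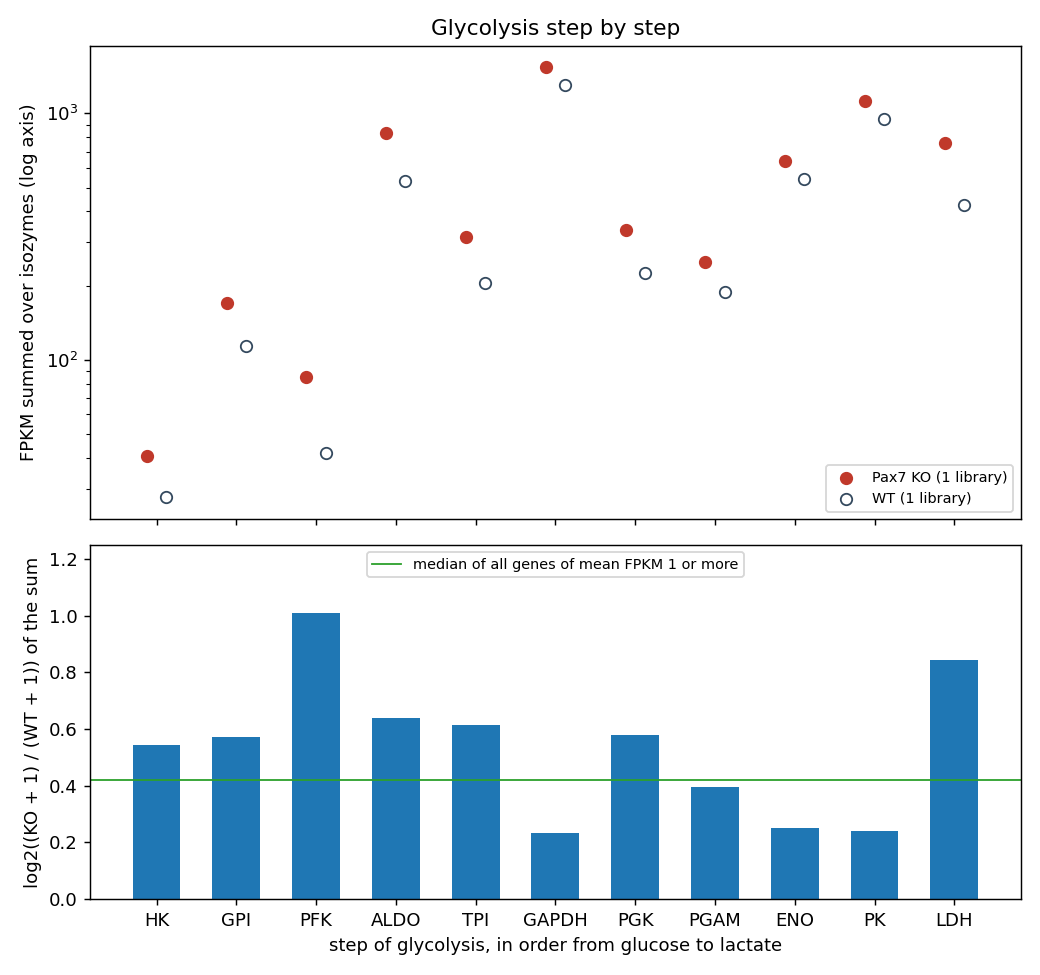
Upper panel, FPKM summed over the isozymes of each step of glycolysis (log axis) in Pax7 KO (filled) and WT (open), from hexokinase (HK) to lactate dehydrogenase (LDH). Lower panel, the log2 ratio of each sum, with the median of all genes as a line at 0.42. Phosphofructokinase at 1.01 and lactate dehydrogenase at 0.84 stand highest, and glyceraldehyde-3-phosphate dehydrogenase, phosphoglycerate mutase, enolase and pyruvate kinase lie under the line.

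The first steps trap glucose in the cell, and their sums lay 0.12 (hexokinase) and 0.15 (isomerase) above the median gene on the log2 scale. Hk1, the hexokinase found in most tissues, was at 31.2 FPKM in KO and 20.7 FPKM in WT, in a row that shares its locus with 2210417K05Rik. Hk2, the insulin-regulated hexokinase of muscle and fat, was at 8.997 FPKM in KO and 6.50 FPKM in WT, with a log2 ratio that equalled the median gene to within 0.01. The balance of the pair was thus much the same, with Hk2 at 22.4% of their summed FPKM in KO and 23.9% in WT. Gpi1, glucose-6-phosphate isomerase, was at 169.8 FPKM in KO and 113.9 FPKM in WT, a log2 ratio of 0.57.

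Phosphofructokinase, the main control point of the pathway, had the largest ratio of any step. Pfkl (chromosome 10, 77449694 to 77472541, mm9), the liver-type subunit, was at 61.3 FPKM in KO and 27.1 FPKM in WT, 2.26-fold higher. Its log2 ratio of 1.15 stood 0.73 above the median gene, with a counting interval of 1.11 to 1.24. Pfkp, the platelet-type subunit, was at 17.9 FPKM in KO and 10.9 FPKM in WT. Pfkm, the subunit of mature muscle, was the lowest of the 3, at 5.73 FPKM in KO and 3.64 FPKM in WT. Liver-type Pfkl made up 72.2% of the summed phosphofructokinase FPKM in KO and 65.2% in WT. The Pfkp and Pfkm rows cover the same loci as Pitrm1 and Senp1, neighbouring genes, and Pfkm summed with Senp1 had a log2 ratio of 0.33, below the median gene.

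Aldolase and the triose phosphate steps were higher by close to 1.5-fold, except for glyceraldehyde-3-phosphate dehydrogenase. Aldoa, the aldolase of muscle, was at 829 FPKM in KO and 532 FPKM in WT, a log2 ratio of 0.64. Tpi1, triosephosphate isomerase, whose row shares its locus with Spsb2, was at 315 FPKM in KO and 205 FPKM in WT, and Pgk1, phosphoglycerate kinase, at 337 FPKM in KO and 225 FPKM in WT. Gapdh, the most abundant message of the 34 and a common reference gene, was at 1537 FPKM in KO and 1308 FPKM in WT. Its log2 ratio of 0.23 was -0.19 relative to the median gene, and which library is higher thus depends on the scaling.

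The steps from phosphoglycerate to pyruvate lay below the median gene. Pgam1, phosphoglycerate mutase, was at 247.6 FPKM in KO and 187.8 FPKM in WT, which placed it at -0.02 relative to the median gene. Eno1, the enolase of dividing cells, was at 629 FPKM in KO and 517 FPKM in WT, or -0.14 relative to the median gene. The Eno1 row shares its locus with Gm5506, a near-identical gene that RefSeq lists as Eno1b, at 293 FPKM in KO and 273 FPKM in WT, so the split between the 2 rows is uncertain. Their sum had a log2 ratio of 0.22. Pyruvate kinase was represented by Pkm2, which is not one of the 34 genes, at 1121 FPKM in KO and 948 FPKM in WT. The muscle enolase Eno3, also outside the 34, went the other way, at 13.1 FPKM in KO and 23.1 FPKM in WT. Eno3 formed 2.04% of the summed enolase FPKM in KO and 4.27% in WT.

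Both subunits of lactate dehydrogenase lay above the median gene. Ldha, the subunit that favours lactate formation and a HIF target, was at 739 FPKM in KO and 415 FPKM in WT. Its log2 ratio of 0.83 was the largest of the 8 abundant enzymes, and its counting interval ran from 0.80 to 0.86. Ldhb (chromosome 6, 142438769 to 142456463, mm9), the subunit of oxidative tissues such as heart, was at 20.6 FPKM in KO and 7.76 FPKM in WT, 2.66-fold higher. Its log2 ratio of 1.30, or 0.88 relative to the median gene, was the largest of the 34 genes, with a counting interval of 1.19 to 1.63. That rank rests on the pseudocount: without it, Aldoc, a gene of low level, was at 1.60 and Ldhb at 1.41. Ldha remained the main subunit, with Ldhb at 2.72% of the summed FPKM in KO and 1.83% in WT.

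**Figure D3:**
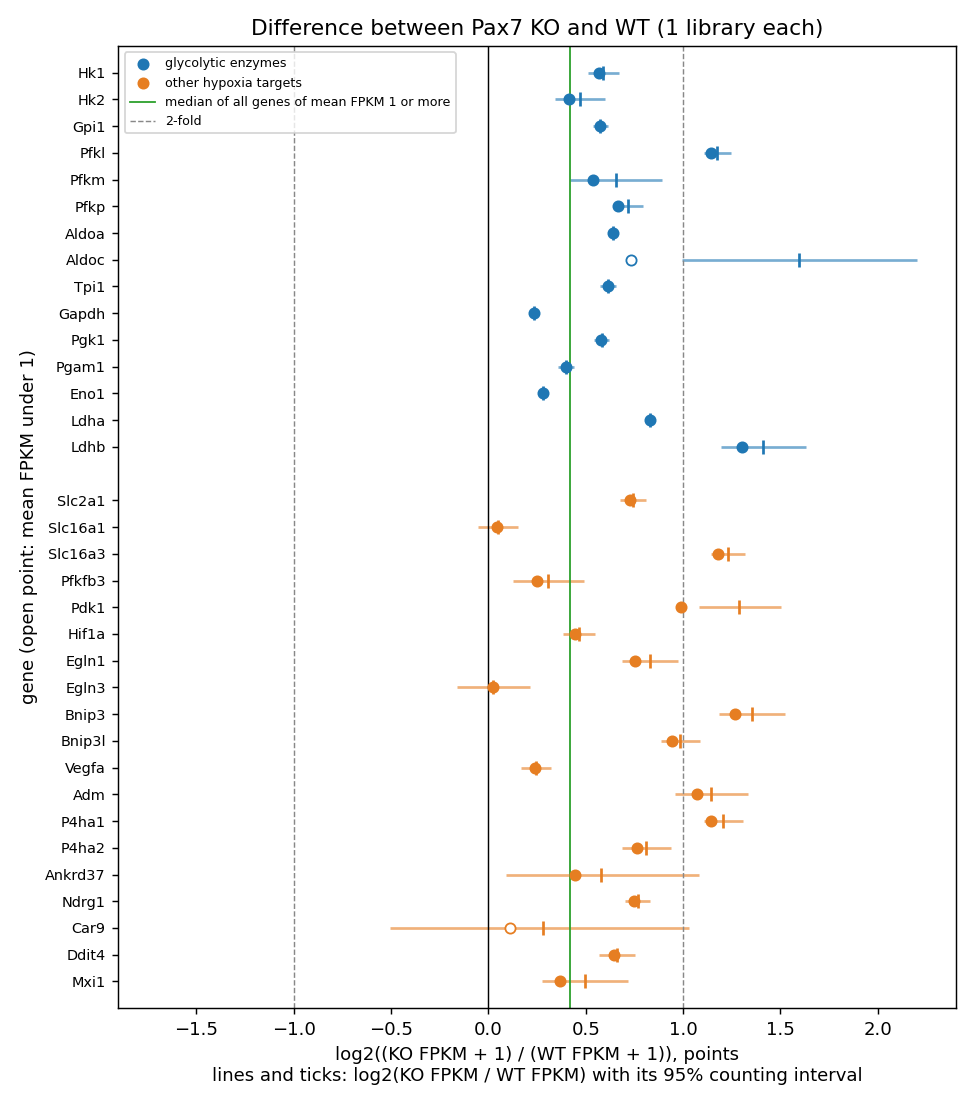
Log2 ratio of each gene between Pax7 KO and WT (points; open points mark a mean FPKM under 1), with log2(KO FPKM / WT FPKM) without a pseudocount as ticks and its 95% counting interval as lines. Solid lines mark 0 and the median of all genes at 0.42, dashed lines 2-fold. The points lie between 0.02 and 1.30, and 6 lie beyond the upper dashed line.

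Among the transporters, the lactate exporter had a large ratio and its relative one near 0. Slc16a3 (chromosome 11, 120809798 to 120820314, mm9), which encodes MCT4 and exports lactate from glycolytic cells, was at 36.1 FPKM in KO and 15.4 FPKM in WT, 2.35-fold higher. Its log2 ratio of 1.18 stood 0.76 above the median gene. Slc16a1, which encodes MCT1 and carries lactate in either direction, was at 14.8 FPKM in KO and 14.3 FPKM in WT, with a counting interval of -0.06 to 0.15 that holds 0. Slc16a1 lay at -0.37 relative to the median gene. Slc2a1, which encodes the basal glucose transporter GLUT1, was at 59.1 FPKM in KO and 35.3 FPKM in WT, a log2 ratio of 0.73.

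The 2 regulators of flux differed in size. Pdk1, the kinase that shuts pyruvate out of mitochondria, was at 5.24 FPKM in KO and 2.14 FPKM in WT, 2.45-fold higher in FPKM. Because its level is low, the pseudocount brought its log2 ratio to 0.99, and without a pseudocount Pdk1 joined the 6 genes past 2-fold. Pfkfb3, which makes the activator of phosphofructokinase, was at 5.00 FPKM in KO and 4.04 FPKM in WT, a log2 ratio of 0.25 and -0.17 relative to the median gene.

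The oxygen-sensing genes lay on both sides of the median gene. Hif1a, which encodes the oxygen-labile HIF subunit, was at 26.5 FPKM in KO and 19.2 FPKM in WT, at 0.03 relative to the median gene. HIF activity is set mainly by the stability of the protein, which these data do not measure. Egln1, which encodes the main HIF prolyl hydroxylase PHD2, was at 13.0 FPKM in KO and 7.31 FPKM in WT, a log2 ratio of 0.75. Egln3, which encodes PHD3 and is known as a sensitive HIF target, was at 7.69 FPKM in KO and 7.55 FPKM in WT, the lowest log2 ratio of the 34 genes at 0.02. The counting interval of Egln3 was -0.16 to 0.21.

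The mitophagy receptors were among the larger differences. Bnip3 (chromosome 7, 146082519 to 146101189, mm9), a HIF target that tags mitochondria for removal, was at 24.4 FPKM in KO and 9.55 FPKM in WT, 2.56-fold higher. Its log2 ratio of 1.27 stood 0.85 above the median gene, with a counting interval of 1.19 to 1.52. Bnip3l, its relative, which clears mitochondria from maturing red cells, was at 31.8 FPKM in KO and 16.1 FPKM in WT, 1.98-fold higher and short of the limit at 0.94.

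The 2 secreted factors had unequal ratios. Adm (chromosome 7, 117771183 to 117773333, mm9), which encodes the vasodilator peptide adrenomedullin, was at 22.7 FPKM in KO and 10.3 FPKM in WT, a log2 ratio of 1.07. Vegfa, the main growth factor for blood vessels, was at 38.4 FPKM in KO and 32.4 FPKM in WT, a log2 ratio of 0.24 and -0.18 relative to the median gene. Both are classic HIF targets. Their counting intervals, 0.96 to 1.33 for Adm and 0.17 to 0.32 for Vegfa, cover counting error alone and give no test between the 2 genes.

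The collagen prolyl hydroxylases, which make collagen able to fold at body temperature, were both above the median gene. P4ha1 (chromosome 10, 58786044 to 58836052, mm9), the main catalytic subunit and a HIF target, was at 28.1 FPKM in KO and 12.2 FPKM in WT, 2.31-fold higher, with a log2 ratio of 1.14. P4ha2, the second catalytic subunit, was at 19.9 FPKM in KO and 11.3 FPKM in WT, a log2 ratio of 0.76.

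The remaining targets were within 2-fold. Ndrg1, a stress-induced gene of growth arrest and differentiation, was at 54.6 FPKM in KO and 32.1 FPKM in WT, a log2 ratio of 0.75. Ddit4, an inhibitor of mTORC1 that is also induced by glucocorticoids, was at 59.9 FPKM in KO and 38.0 FPKM in WT, a log2 ratio of 0.65. Ankrd37, a HIF target, was at 4.11 FPKM in KO and 2.75 FPKM in WT, and Mxi1, an antagonist of Myc, at 3.54 FPKM in KO and 2.51 FPKM in WT. Relative to the median gene Ankrd37 lay at 0.02 and Mxi1 at -0.05, and Ankrd37 rested on about 80 fragments in KO and 64 in WT. Car9, whose level rises steeply in hypoxic cells of many tumours, stayed under 1 FPKM in both libraries.

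Set side by side, the other hypoxia targets had the larger median ratio, and both groups overlapped widely. The median log2 ratio was 0.74 for the 18 other targets above the expression limit and 0.58 for the 14 enzymes, a difference of -0.16 for enzymes minus other targets. At least 2-fold higher were 4 of the 18 other targets and 2 of the 14 enzymes, against 5.06% of all genes. Their ranges were 0.02 to 1.27 for the other targets and 0.23 to 1.30 for the enzymes, so neither group stood apart from the other. As 1 library stood behind each genotype, this difference has no replicate check. The 5 highest of the other targets were Bnip3, Slc16a3, P4ha1, Adm and Pdk1, at 1.27 to 0.99, and the 4 lowest were Egln3, Slc16a1, Vegfa and Pfkfb3, at 0.02 to 0.25.

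**Figure D4:**
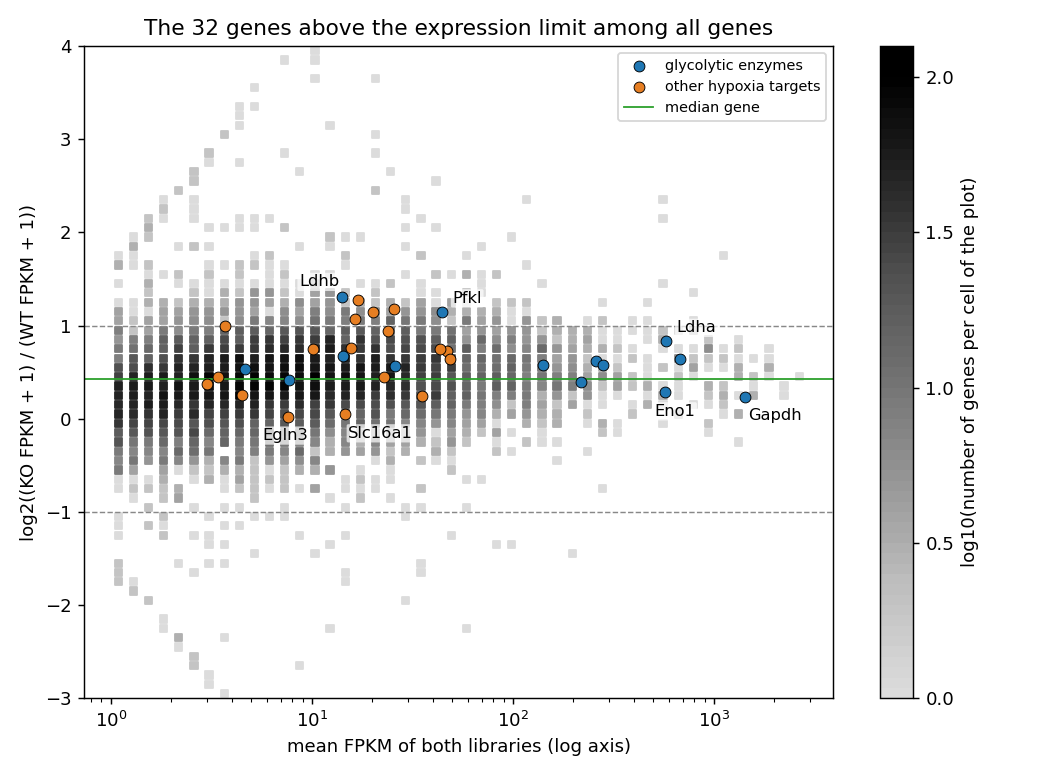
Log2 ratio against mean FPKM (log axis) for all genes of mean FPKM 1 or more (grey, darker where more genes lie) and the 32 genes above the limit (coloured); genes with log2 ratios outside -3 to 4 are not drawn. The enzymes Gapdh and Eno1 lie under the median line at 0.42, while Ldha, as abundant, lies above it at 0.83.

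Ratios between related genes within 1 library do not depend on how the 2 libraries were scaled. Slc16a3 stood at 2.43 times the FPKM of Slc16a1 in KO and at 1.07 times in WT, a 2.27-fold difference in balance that was the largest of the 9 pairs compared. Egln3 stood at 0.591 times Egln1 in KO and at 1.03 times in WT. The ratio of Ldhb to Ldha was 0.0279 in KO and 0.0187 in WT, and that of Pfkl to Pfkp was 3.43 in KO and 2.50 in WT. Within the 2 families of paired HIF targets, the member with the larger ratio was Bnip3 over Bnip3l and P4ha1 over P4ha2. Bnip3l stood at 1.30 times Bnip3 in KO and at 1.68 times in WT, and P4ha2 at 0.708 times P4ha1 in KO and at 0.931 times in WT. The hexokinase pair and the pair of Pfkm with Pfkp changed least, with KO ratios at 0.920 and 0.959 of the WT ratios. Aldoc against Aldoa differed 1.94-fold, higher in KO, and rested on about 85 fragments of Aldoc in KO and 34 in WT.

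**Figure D5:**
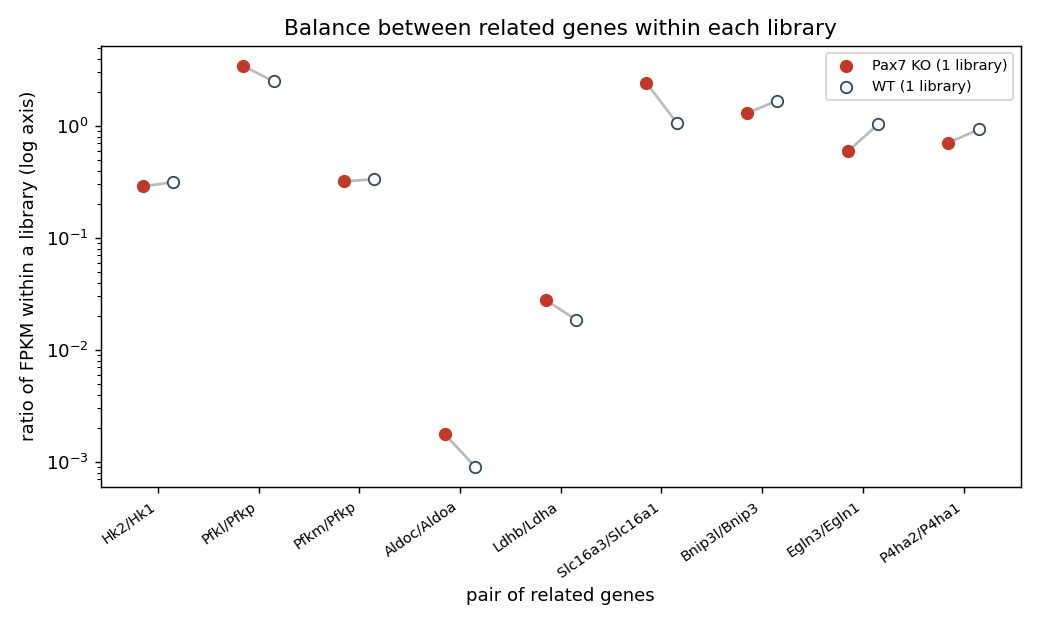
FPKM of 1 gene divided by that of its relative within the same library (log axis), with Pax7 KO filled and WT open, for 9 pairs. The largest gap is that of Slc16a3 over Slc16a1, at 2.43 in KO and 1.07 in WT, and the ratio of Egln3 over Egln1 was 0.591 in KO and 1.03 in WT.

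Other genes of glycolysis and its branches had the same median log2 ratio as the enzymes, 0.58, over a wider range from -0.77 to 2.38. Of 24 such genes with a mean FPKM of 1 or more, 22 had a log2 ratio above 0, and the 2-fold limit was passed upward by 3, against 5.06% of all genes, and downward by none, against 0.689%. The 3 were Gpd1, Pgm2 and Pygl. Gpd1, glycerol-3-phosphate dehydrogenase, which diverts a glycolytic intermediate to lipid synthesis and is abundant in fat cells, was at 48.5 FPKM in KO and 8.49 FPKM in WT. Pgm2, a phosphoglucomutase, and Pygl, the liver form of glycogen phosphorylase, both of glycogen use, had log2 ratios of 1.20 and 1.13. Pdk2 was next at 0.98. Relative to the median gene, Gpd1 remained 2-fold higher at 1.96 and Eno3 was 2-fold lower at -1.19. The other 3 lowest were Pfkfb2, Pdk4 and Gpd2, with log2 ratios of -0.25, 0.00 and 0.16.

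A list of 48 further hypoxia-related genes that passed the expression limit had a median log2 ratio of 0.63, against 0.42 for all genes. The 2-fold limit was passed upward by 6 of the 48, against 5.06% of all genes, and downward by none, against 0.689%. The highest were Nrn1, a membrane-anchored neuronal growth factor, Cox4i2, the oxygen-regulated isoform of a cytochrome oxidase subunit, Trf, transferrin, and Higd1a, a mitochondrial protein, with log2 ratios of 1.87, 1.43, 1.29 and 1.24. Pgf, placental growth factor, and Anxa2, annexin A2, were the other 2, at 1.21 and 1.08. Among the lowest were Stc2, Arnt2 and Cited2, with log2 ratios of -0.39, -0.08 and 0.01. Relative to the median gene, Nrn1 and Cox4i2 remained 2-fold higher, at 1.45 and 1.01. Both lists of further genes are the choice of this work, and Pfkfb4 stands in both.

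Markers of several cell types differed between the same 2 libraries as the 34 genes. Of 8 satellite cell and myoblast markers, 4 were at least 2-fold lower in KO and 4 were within 2-fold. Pax7, the gene deleted in KO, is among the lower 4, with a log2 ratio of -1.25, and is no marker independent of the genotype. Myf5, Myod1 and Cdh15, also among them, had log2 ratios of -2.61, -2.27 and -1.38. How much of the Pax7 difference came from the deletion and how much from fewer myogenic cells was not tested. The list summed to 221 FPKM in KO and 335 FPKM in WT. Of 7 adipocyte markers, 6 passed the expression limit and those 6 were at least 2-fold higher, with sums of 1174 FPKM in KO and 232 FPKM in WT. Among endothelial markers, 3 of 8 passed 2-fold upward, with sums of 771 FPKM in KO and 391 FPKM in WT. Keratinocyte markers summed to 53.8 FPKM in KO and 2.44 FPKM in WT over 4 genes, of which 3 were 2-fold higher. Granulocyte markers summed to 121.7 FPKM in KO and 33.1 FPKM in WT over 5 genes, of which 4 were 2-fold higher. Of 6 erythroid markers, 3 passed the expression limit, of which 2 were 2-fold higher and 1 was 2-fold lower, with sums of 32.1 FPKM in KO and 7.88 FPKM in WT, and 2 in KO and 1 in WT were at the lowest listed value. Smooth muscle and pericyte markers summed to 906 FPKM in KO and 840 FPKM in WT over 6 genes, of which 2 were 2-fold higher. Fibroblast markers summed to 146.4 FPKM in KO and 99.2 FPKM in WT over 5 genes, of which 1 was 2-fold higher. Macrophage markers summed to 13.3 FPKM in KO and 10.7 FPKM in WT, and of the 2 of 5 genes above the expression limit none was past 2-fold. Except for the erythroid list, no marker was at the lowest listed value of either library. Relative to the median gene, the 2-fold limit was passed upward by 6 adipocyte, 3 keratinocyte, 3 granulocyte and 2 erythroid markers. It was passed upward by 1 endothelial and 1 smooth muscle and pericyte marker, and by no fibroblast or macrophage marker. Downward it was passed by 4 satellite cell and myoblast markers and 1 erythroid marker. Of all genes compared, 1.35% passed this relative limit upward and 1.45% downward. The part of cell composition in the ratios of the 34 genes was not tested.

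The authors' deposited table of genes higher in KO holds 7 of the 32 genes, the 6 past 2-fold and Pdk1, against 5.20% of all genes compared. None of the 34 is in the authors' lower list, and the sources used here do not state how the lists were chosen. In the authors' deposited table, folds of KO over WT were 2.66 for Ldhb, 2.56 for Bnip3 and 2.45 for Pdk1. Those lists were made from the same 2 libraries, so they are no independent check.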

How the data were processed

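The comparison is of 2 libraries. The table the authors deposited gives FPKM, per the file headers, and their lists of higher and lower genes add a fold, the deposited ratio of KO to WT FPKM. Cuffdiff 2.1.1, TopHat2 2.0.9, the mm9 build and Cufflinks 2.1.1 are listed in the submitters' processing notes. Neither the role of each tool nor the handling of reads that match several places is given in the sources used here. Several glycolytic genes have processed pseudogenes, so their FPKM could include or lose such reads.

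The rows of the 1 repeated symbol were summed, and the columns were used as deposited. Genes with a mean FPKM of 1 or more entered the comparison, with a pseudocount of 1 and a limit of 2-fold. Depth was the library size at which low FPKM values, times the length of the only GENCODE M21 transcript, fell closest to whole fragments. The fit was loose, with a mean cosine of 0.38 in KO and 0.35 in WT, where 1 would be exact, and it assumes that no scaling factor had been applied. Fragments per gene then used the longest transcript, and intervals are Clopper-Pearson. The search and the intervals were tested on simulated whole fragments, to which the deposited values conform only loosely. Starts in the table were read as counted from 0, since of 20652 loci matched to RefSeq 7162 had a length equal to end minus start, against 455 that were 1 short, and 1 was added. The GRCm38 references served for lengths, names and promoters only. Genes were named as follows: all 34, Pax7, the extremes and 2-fold changes of the further lists, and isozymes that complete a step; 1 gene this rule names is not reported here. The 34 genes and the further lists were chosen with earlier results of these data known, although no value entered the rule for the 34. The tools were matplotlib 3.10.9, scipy 1.17.1, pandas 2.3.3, numpy 2.4.6 and Python 3.11.15.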

Additional observations from a re-analysis of the deposited data

How the results depend on the processing

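No paired analysis was possible because each genotype has 1 library. As deposited, 6 genes were 2-fold higher. None was when ratios were centred on the median gene, scaled by the upper quartile or centred on the median of genes of mean FPKM 100 or more, the last chosen after seeing the data. With these 3 scalings the median was 0.15, 0.10 and 0.069 for glycolytic enzymes and 0.32, 0.24 and 0.23 for other hypoxia targets. The 3 shifts were 0.42, 0.51 and 0.51. A 1.5-fold limit gave 17 higher. Pseudocounts of 0.1 and 0.5, none (chosen after seeing the data) and the authors' lists gave 7 higher each. No filter, a mean FPKM of 5, the highest row of a repeated symbol and leaving out the 5 genes with shared loci gave 6. None was 2-fold lower under any of these alternatives. Relative to the median gene, 10 of all 34 lay below 0, and with upper-quartile scaling 11 did. Depth limits Car9, Aldoc and Ankrd37, whose counting intervals ran from -0.50 to 1.03, 1.00 to 2.20 and 0.09 to 1.08 on the log2 scale.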
